A study of Mus musculus with 6 samples.

Results

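The genes described here are 10 genes of the NRF2 antioxidant response: the regulators Nfe2l2 and Keap1 and the target genes Nqo1, Hmox1, Gclc, Gclm, Txnrd1, Srxn1, Gsr and Prdx1. They were taken by symbol from the deposited expression tables, and all 10 were among the 15063 listed genes. Expression had been measured by RNA-seq of mesenchymal stem cells (MSCs), the stromal progenitors of bone, cartilage and fat, grown out of mouse bone marrow. The wild-type group (WT) had 3 libraries and the Mapk7 conditional knockout group (CKO) had 3, all from mice of 3 weeks. WT libraries 1 and 3 and the 3 CKO libraries came from cells at passage 5, and WT library 2 from cells at passage 7. Per the growth protocol in the labels, the cells were kept in medium with fetal bovine serum, and no added agent is named. The Cre driver, the floxed allele and the strain were not named in the sources used here. Values are in RPKM, the reads of a gene divided by its length and by the library total, so levels of different genes can be set side by side.

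NRF2, the product of Nfe2l2, is a transcription factor that is made continuously and destroyed quickly. KEAP1 holds it in the cytoplasm and hands it to the CUL3 ubiquitin ligase. Oxidants and electrophiles modify KEAP1, and NRF2 then escapes, enters the nucleus and, paired with a small MAF protein, binds antioxidant response elements near genes of glutathione synthesis, thioredoxin recycling, quinone reduction and haem breakdown. Because this control acts on the NRF2 protein, the Nfe2l2 transcript is only an indirect measure of the pathway, and its targets are commonly read in its place.

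The element that NRF2 binds has the core TGACNNNGC. RefSeq promoter windows (GRCm38.p6, 250 bases before to 50 bases after a start site) were found for 7 of the 10 genes, with 9 windows because Txnrd1 had 3 start sites. The core was searched on both strands, and a match was kept whether or not it overlapped another motif. It was present in windows of 5 of these 7 genes, namely Nfe2l2, Gclm, Txnrd1, Srxn1 and Prdx1, and in 1 of the 3 Txnrd1 windows. Across all 32851 windows of the same length, 12.4% held a match, and 14.0% of genes had one in any window. A match describes the letters only. The 5 matches are shown with 10 bases on either side so that the cores of these genes can be compared. Each is read 5′ to 3′ on the strand of its gene, with the core in capitals.
Nfe2l2, chr2:75704885-75704913 (- strand): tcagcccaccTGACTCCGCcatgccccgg
Gclm, chr3:122245413-122245441 (+ strand): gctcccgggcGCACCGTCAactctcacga
Txnrd1, chr10:82859104-82859132 (+ strand): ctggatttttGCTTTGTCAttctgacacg
Srxn1, chr2:152105542-152105570 (+ strand): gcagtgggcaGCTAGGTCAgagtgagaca
Prdx1, chr4:116685456-116685484 (+ strand): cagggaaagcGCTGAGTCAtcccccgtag

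The core lay on the strand of the gene in Nfe2l2 and on the opposite strand in the other 4. It began 240 bases before the start site in Nfe2l2, 134 in Gclm, 133 in Prdx1 and 92 in Txnrd1, and 28 bases after the start site in Srxn1. No match was found in the windows of Nqo1 and Keap1, which says only that these letters were absent from those 300 bases. The 250 bases before the start are printed for Txnrd1, at the start site whose window held the core, and for Nqo1, because these were the target genes whose WT and CKO libraries did not overlap, in opposite directions. The deposited values were made on build mm9, so these coordinates are not on the build of the counted reads, and values per gene do not separate the 3 start sites of Txnrd1.
Txnrd1, chr10:82858956-82859205 (+ strand): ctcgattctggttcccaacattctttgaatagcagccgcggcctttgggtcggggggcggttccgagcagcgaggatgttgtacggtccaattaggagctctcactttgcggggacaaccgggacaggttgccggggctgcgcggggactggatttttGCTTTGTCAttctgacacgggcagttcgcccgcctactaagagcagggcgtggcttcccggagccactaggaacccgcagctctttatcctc
Nqo1, chr8:107403206-107403455 (- strand): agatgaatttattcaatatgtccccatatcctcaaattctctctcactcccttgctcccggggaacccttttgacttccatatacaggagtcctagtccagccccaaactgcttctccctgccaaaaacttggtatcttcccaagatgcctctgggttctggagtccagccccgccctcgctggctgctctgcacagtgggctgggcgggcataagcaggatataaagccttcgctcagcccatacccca

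Library totals recovered from the values ranged from 17351907 to 20689481 reads. Mapk7 itself was lower in each CKO library but still present, at 7.12, 6.76 and 9.07 RPKM for WT libraries 1 to 3 and 5.59, 3.84 and 5.45 RPKM for CKO libraries 1 to 3 (log2 difference −0.54, SE 0.23, limma adjusted p = 0.505). WT library 2, the passage 7 culture, stood apart. It had some of the lowest correlations with other libraries (0.795 to 0.920 across tested genes), and its 12 proliferation genes summed to 46.0 RPKM against 182 to 410 RPKM elsewhere. WT libraries 1 and 2 carry the same animal label, yet the Y-linked gene Ddx3y was at 0.0357 RPKM in the one and 19.1 RPKM in the other, which goes against that label. Ddx3y was at 11.8 RPKM in WT library 3 and at 15.3, 6.45 and 16 RPKM in CKO libraries 1 to 3. WT library 1 was thus the only library near 0, an imbalance between the genotypes whose part in their differences was not tested. WT library 3 has different animal numbers in its description and its file header. Among the 10 stromal markers, the collagen genes Col1a1 (1126 to 2959 RPKM) and Col1a2 (1361 to 2466 RPKM) were abundant. Pdgfra ranged from 1.01 to 32.3 RPKM, and Lepr, a marker of marrow stroma, was under 1 RPKM throughout. The 10 summed to 4655 to 5428 RPKM over WT and 2858 to 5755 RPKM over CKO, lowest in CKO library 3. The 15 macrophage markers all had reads. They summed to 861 to 2109 RPKM over WT and 408 to 3600 RPKM over CKO, highest in CKO library 3. Among them, Cx3cr1 was under 1 RPKM in every library but WT library 3, where it was at 3.73 RPKM. Each of the 5 endothelial markers was under 1 RPKM, and the 2 listed erythroid markers of 5 summed to 1.61 RPKM at most. Nothing in the labels states separate litters or days for the libraries of a group, so the tests measure the spread between these cultures.

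None of the 10 genes passed the test between genotypes with limma, and none did with voom on recovered reads. With limma, 1 of 11085 tested genes, Galnt16, passed (0.00902%). All 10 were expressed above the filter, with 174 to 15863 reads per gene and library. In 3 of the 10 the WT and CKO libraries did not overlap. Txnrd1 was higher in all 3 CKO libraries, as were 7.51% of all tested genes. Nqo1 and Keap1 were lower in all 3 CKO libraries, as were 9.18% of all tested genes. At an unadjusted threshold of 0.05, Txnrd1 and Nqo1 were the members below it, where 9.74% of all tested genes were. The log2 difference was above 0 in 7 members and below 0 in 3, with a median of 0.16 beside 0.03 for all tested genes. Of all 11085 tested genes, 5950 lay above 0 and 5135 below. A permutation test of 1 gene with 3 libraries a side has a smallest exact p of 0.1, so limma's moderated test was used. In bulk RNA, fewer cells of a type and less RNA per cell cannot be told apart.

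**Figure D1:**
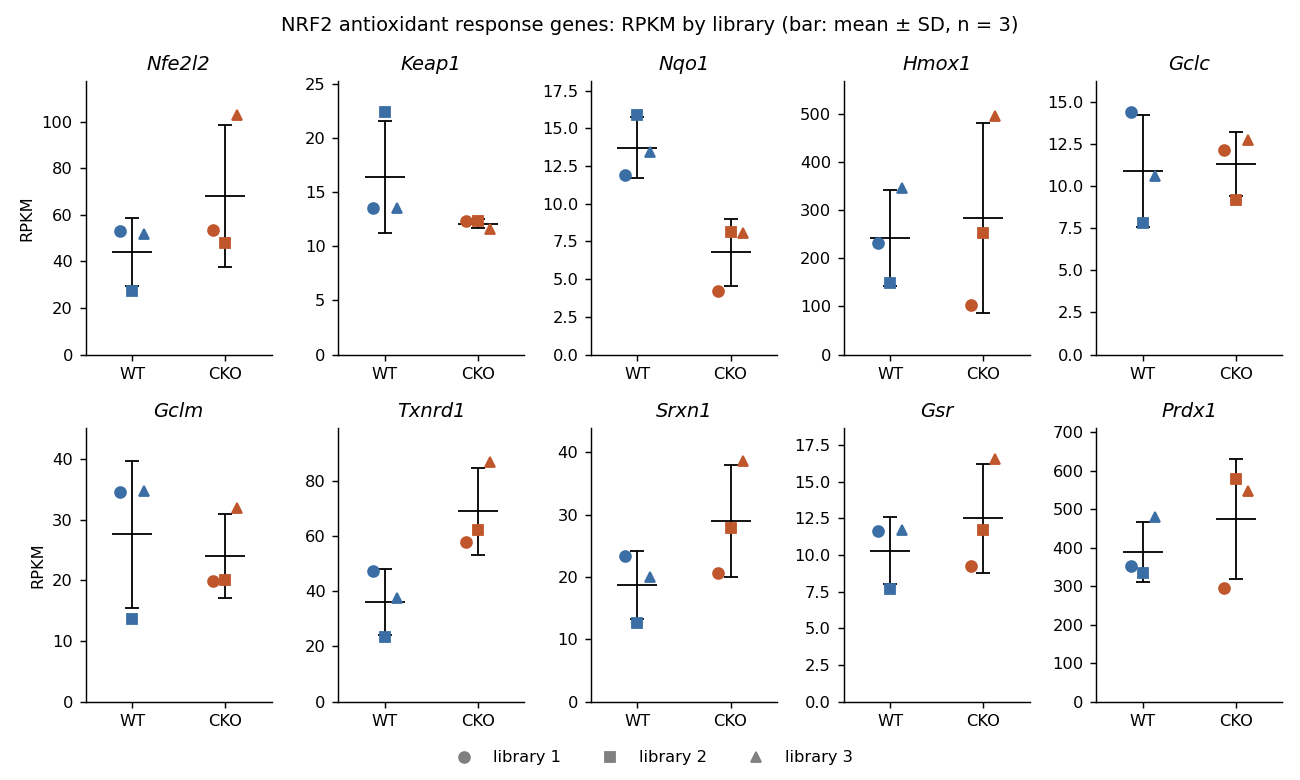
RPKM of the 10 genes in each library, WT in blue and CKO in orange, with the marker shape giving the library number and the bars the mean ± SD (n = 3). All CKO points lie below all WT points for Nqo1 and Keap1 and above them for Txnrd1, while the other 7 genes overlap.

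Among the regulators, Nfe2l2 overlapped between genotypes, with 1 library per group away from the rest. WT libraries 1 to 3 held 53.1, 27.1 and 51.8 RPKM, and CKO libraries 1 to 3 held 53.3, 47.9 and 103 RPKM. WT library 2 was low, CKO library 3 was high, and the other 4 lay between 47.9 and 53.3 RPKM. The WT mean was 44.0 ± 14.6 RPKM and the CKO mean 68.1 ± 30.5 RPKM (SD, n = 3), a log2 difference of 0.59 (SE 0.39, limma adjusted p = 0.642).

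Keap1, the adaptor that marks NRF2 for degradation, did not overlap, but by a narrow margin. WT libraries held 13.5, 22.4 and 13.5 RPKM, and CKO libraries 12.3, 12.3 and 11.6 RPKM. WT libraries 1 and 3 were slightly above the CKO libraries, and WT library 2 was far above them. The WT mean was 16.4 ± 5.15 RPKM and the CKO mean 12.1 ± 0.385 RPKM (SD, n = 3), a log2 difference of −0.38 (SE 0.25, limma adjusted p = 0.638). After median centring the Keap1 values overlapped. Every CKO value of Nfe2l2 then lay above every WT value, as was so for 10.6% of all tested genes. The ratio of Nfe2l2 to Keap1 was 3.95, 1.21 and 3.84 in the WT libraries and 4.32, 3.90 and 8.87 in the CKO libraries. It was lowest in WT library 2 and highest in CKO library 3, and the other 4 libraries spanned 3.84 to 4.32.

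Nqo1, the quinone reductase gene often used as a reporter of NRF2 activity, was lower in every CKO library than in any of the WT libraries. WT libraries held 11.9, 15.9 and 13.4 RPKM, and CKO libraries 4.20, 8.10 and 8.03 RPKM, with CKO library 1 the lowest. That lowest value rested on 174 reads, with an exact Poisson 95% interval of 149 to 202 for counting error only. The CKO mean was 0.493 times the WT mean (6.78 ± 2.23 against 13.7 ± 2.02 RPKM, SD, n = 3). The log2 difference of −0.96 (SE 0.28) did not pass (limma adjusted p = 0.330). Of the 9 tested stromal markers, 4 (Pdgfrb, Cxcl12, Ly6a and Pdgfra) were also lower in all 3 CKO libraries, as were 9.18% of all tested genes. The other 5 overlapped, with log2 differences of 0.50 for Nt5e, 0.40 for Thy1, −0.72 for Eng, −0.29 for Col1a1 and −0.43 for Col1a2. None of the 9 passed with limma, and their part in the Nqo1 difference was not tested.

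Txnrd1 encodes the cytosolic thioredoxin reductase, which passes electrons from NADPH to thioredoxin, and it was higher in every CKO library. WT libraries held 47.3, 23.4 and 37.5 RPKM, and CKO libraries 57.7, 62.1 and 86.8 RPKM. The lowest CKO library thus exceeded the highest WT library. The CKO mean was 1.91 times the WT mean (68.9 ± 15.7 against 36.1 ± 12.0 RPKM, SD, n = 3), with a log2 difference of 0.95 (SE 0.32, limma adjusted p = 0.388).

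Srxn1 encodes sulfiredoxin, which repairs overoxidised peroxiredoxins. WT libraries held 23.4, 12.7 and 20.0 RPKM of Srxn1, and CKO libraries 20.7, 27.8 and 38.6 RPKM. CKO libraries 2 and 3 exceeded all WT libraries and CKO library 1 did not, so the groups overlapped (log2 difference 0.60, SE 0.31, limma adjusted p = 0.586). Prdx1 is an abundant cytosolic peroxiredoxin that removes hydrogen peroxide. WT libraries held 353, 335 and 479 RPKM of Prdx1, and CKO libraries 296, 579 and 548 RPKM. CKO library 1 was the lowest of the 6 and CKO library 2 the highest, and the log2 difference was 0.24 (SE 0.37, limma adjusted p = 0.844). Prdx1 has a pseudogene, Prdx1-ps, and how shared reads were counted is not stated, so its level is uncertain to that extent.

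The glutathione genes overlapped between genotypes. Gclc and Gclm encode the catalytic and modifier subunits of glutamate-cysteine ligase, the rate-limiting enzyme of glutathione synthesis. WT libraries held 14.4, 7.79 and 10.6 RPKM of Gclc, and CKO libraries 12.1, 9.14 and 12.7 RPKM, all within the WT range. For Gclm, WT libraries held 34.5, 13.6 and 34.7 RPKM, and CKO libraries 19.9, 20.1 and 32.0 RPKM. These CKO values lay within the WT range through the low WT library 2. For Gsr, the glutathione reductase gene, WT libraries held 11.6, 7.65 and 11.7 RPKM, and CKO libraries 9.25, 11.7 and 16.5 RPKM. CKO library 3 was well above the WT values of Gsr, CKO library 2 was level with WT libraries 1 and 3, and CKO library 1 lay between WT library 2 and the other WT libraries. The log2 difference was 0.07 (SE 0.27) for Gclc, −0.12 (SE 0.40) for Gclm and 0.24 (SE 0.28) for Gsr, with limma adjusted p of 0.940, 0.933 and 0.782.

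Hmox1 encodes haem oxygenase 1, which breaks haem down to biliverdin, iron and carbon monoxide and is also expressed in macrophages. It varied most of the 10 genes, 4.78-fold from its lowest to its highest library. WT libraries held 232, 148 and 347 RPKM, and CKO libraries 104, 253 and 496 RPKM. Both the lowest and the highest library were CKO, and the log2 difference was 0.04 (SE 0.60, limma adjusted p = 0.987). The 15 macrophage markers summed to 1047, 861 and 2109 RPKM for WT and 700, 408 and 3600 RPKM for CKO. Lyz2, the lysozyme gene of myeloid cells, made up 75.4% to 81.9% of the sum. The other 14 markers summed to 219, 174 and 519 RPKM for WT and 171, 87.6 and 652 RPKM for CKO. Of the 15 markers, 8 were higher and 7 lower in CKO library 3 than in WT library 3. Within each genotype, library 3 was highest for Hmox1 and for the sum with or without Lyz2. CKO library 2 had more Hmox1 than CKO library 1 but a lower marker sum. With the mean log2 level of the markers as a covariate the log2 difference of Hmox1 was 0.22, and the share of Hmox1 that came from macrophages was not tested. None of the 14 tested macrophage markers passed.

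Without WT library 2 all libraries were at passage 5, and the differences of Txnrd1, Srxn1, Nfe2l2, Keap1 and Nqo1 were smaller with the same sign. Txnrd1 was then at means of 42.4 RPKM for WT and 68.9 RPKM for CKO (log2 difference 0.67, SE 0.27, limma adjusted p = 0.849). Nqo1 was at 12.7 and 6.78 RPKM (−0.86, SE 0.31, limma adjusted p = 0.811). The log2 difference was 0.28 for Nfe2l2, 0.36 for Srxn1 and −0.15 for Keap1. Gclm moved further from 0, to −0.55 (SE 0.27, limma adjusted p = 0.953), at 34.6 and 24.0 RPKM. Gclc and Hmox1 turned to −0.13 and −0.27. In this comparison of 2 against 3 libraries, Txnrd1 was higher in every CKO library, as were 8.48% of all tested genes. Keap1, Nqo1 and Gclm were lower in every CKO library, as were 12.3% of all tested genes.

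**Figure D2:**
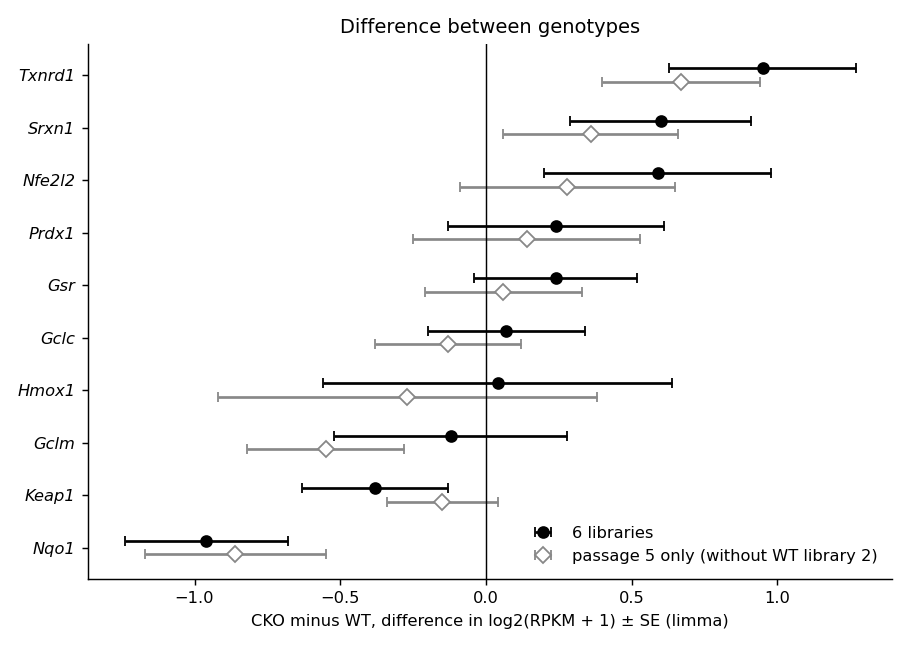
Difference CKO minus WT in log2(RPKM + 1) with its SE for each gene, over 6 libraries (black circles) and without WT library 2 (open diamonds). Txnrd1 is at 0.95 and 0.67 and Nqo1 at −0.96 and −0.86, while Gclm moves from −0.12 to −0.55.

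Single libraries differed widely for several of the genes. WT library 2 was the lowest of the 6 in 6 of the 10 genes (Nfe2l2, Gclc, Gclm, Txnrd1, Srxn1 and Gsr) and the highest in 2 (Keap1 and Nqo1). It was the lowest library in 36.9% of all tested genes and the highest in 21.3%. CKO library 3 was the highest in 5 genes (Nfe2l2, Hmox1, Txnrd1, Srxn1 and Gsr) and in 21.1% of all tested genes. CKO library 1 was the lowest in Nqo1, Hmox1 and Prdx1, and in 11.4% of all tested genes. Without CKO library 3 the log2 difference was 0.25 for Nfe2l2, 0.38 for Srxn1, 0.035 for Gsr and −0.49 for Hmox1. Without CKO library 1 it was 0.55 for Prdx1, 0.42 for Gsr and 0.63 for Hmox1, and 6 members did not overlap. In that smaller comparison of 3 against 2 libraries, Txnrd1, Srxn1, Gsr and Prdx1 were higher in both remaining CKO libraries, as were 13.3% of all tested genes, and Keap1 and Nqo1 were lower, as were 13.9%. For Gsr the margin was smaller than the digits printed, with CKO library 2 and WT library 3 both at 11.7 RPKM. WT library 2 was the only passage 7 culture, so passage and that culture cannot be told apart.

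**Figure D3:**
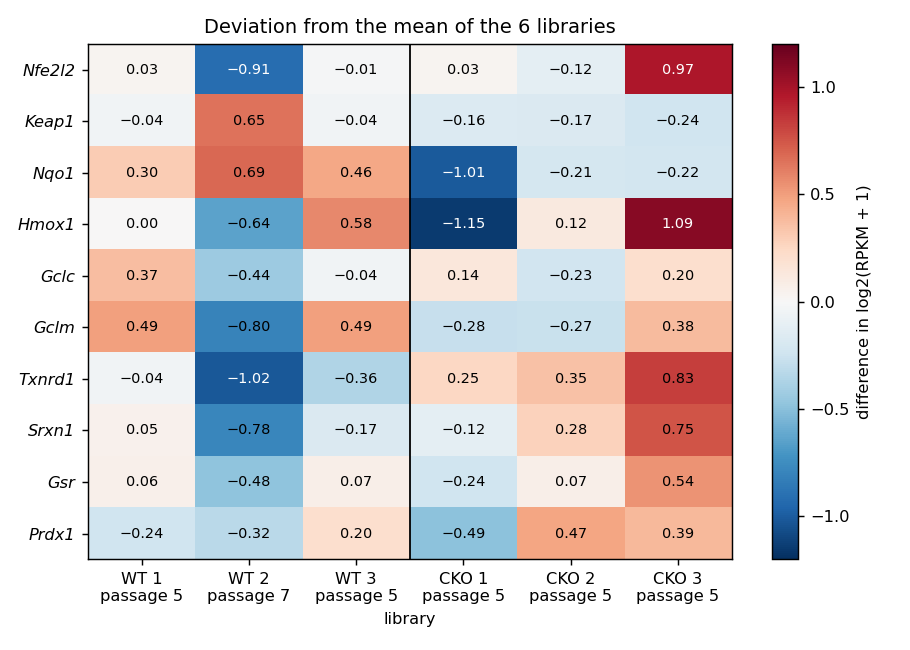
Deviation of each gene from its mean over the 6 libraries, in log2(RPKM + 1), with libraries in columns and genes in rows. WT library 2 is at −1.02 for Txnrd1 and 0.69 for Nqo1, and CKO library 3 is at 1.09 for Hmox1 and 0.97 for Nfe2l2.

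The targets did not all follow each other across libraries. Each of the 8 target genes was scaled to mean 0 and unit SD over the 6 libraries, and these scaled values were averaged in each library. The average was 0.28 in WT library 1, −1.0 in WT library 2 and 0.25 in WT library 3, against −0.62, 0.12 and 0.96 for CKO libraries 1 to 3, so it was lowest in WT library 2 and highest in CKO library 3. Each target is part of that average, so a positive r is partly built in. Gsr followed the average most closely (Pearson r = 0.98 over n = 6 libraries). The r was 0.72 to 0.90 for Hmox1, Srxn1, Gclm, Prdx1 and Txnrd1 and 0.58 for Gclc. Nqo1 had an r of −0.05, although it is itself part of the average. For the regulators, which are not part of it, r was 0.87 for Nfe2l2 and −0.72 for Keap1. Among 10978 tested genes outside the members and lists, the 4 most like the average were Ifi44 (r = 0.998), Zfp429 (0.984), Xaf1 (0.981) and Ankzf1 (0.981). Ifi44, an interferon-induced gene, ranged from 1.94 RPKM in WT library 2 to 27.0 RPKM in CKO library 3. With 6 libraries and so many genes compared, these values are descriptions only.

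The levels of the 10 genes spanned a wide range. Prdx1 had the highest mean over the 6 libraries, at 432 RPKM, followed by Hmox1 at 263 RPKM, and Prdx1 exceeded Hmox1 in 6 of 6 libraries. Hmox1 exceeded Nfe2l2 (56.1 RPKM) in 6 of 6 libraries. Nfe2l2 and Txnrd1 (52.5 RPKM) were not separated, with Nfe2l2 above in 4 libraries. Txnrd1 exceeded Gclm (25.8 RPKM) in 6 of 6 libraries. Gclm and Srxn1 (23.9 RPKM) were not separated, each above the other in 3 libraries. Keap1 (14.3 RPKM), Gsr (11.4 RPKM), Gclc (11.1 RPKM) and Nqo1 (10.3 RPKM) formed the low end, and their ranges overlapped.

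The surrounding pathway was described with 63 further genes in 7 lists, of which 62 were tested. None passed with limma or with voom on recovered reads, 9 had an unadjusted value under 0.05 with limma (9.74% of all tested genes did), and the median log2 difference was −0.07, with 30 above 0 and 32 below. WT and CKO libraries did not overlap in 11 of them, Mafg and Prdx6 being higher (7.51% of all tested genes were) and 9 lower in CKO (9.18% of all tested genes were). Of the 9 tested regulators, 7 lay above 0, as did 5950 of all 11085 tested genes. Sqstm1, whose product p62 binds KEAP1, had a WT mean of 78.0 ± 14.9 RPKM and a CKO mean of 117 ± 45.6 RPKM (SD, n = 3). The small MAF gene Mafg had means of 9.82 ± 0.365 and 12.6 ± 3.55 RPKM, and Bach1, a repressor at the same elements, 5.27 ± 1.68 and 8.31 ± 4.40 RPKM. The limma adjusted p was 0.663 or more in this list.

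Of the 10 thioredoxin and peroxiredoxin genes, 7 lay above 0, with a median of 0.19. Of all 11085 tested genes, 5950 lay above 0 and 5135 below, with a median of 0.03. Prdx6, a peroxiredoxin that also acts on phospholipids, was like Txnrd1 higher in every CKO library. Its WT libraries held 43.0, 32.0 and 42.0 RPKM, and its CKO libraries 50.3, 94.2 and 121 RPKM (log2 difference 1.08, limma adjusted p = 0.376). Sesn2 had means of 19.1 ± 7.65 RPKM (WT) and 31.7 ± 9.78 RPKM (CKO), and Txn1, the thioredoxin gene, 126 ± 57.1 and 221 ± 106 RPKM, both overlapping. Of 15 glutathione genes, 5 lay above and 10 below 0. Gsto1, an omega-class glutathione transferase gene, had means of 47.7 ± 30.9 RPKM (WT) and 179 ± 106 RPKM (CKO), and Gstm1, of the mu class, 83.3 ± 36.1 and 38.1 ± 18.4 RPKM. Gpx7, a peroxidase gene of the endoplasmic reticulum, had means of 52.3 ± 5.78 and 33.5 ± 9.58 RPKM. The groups overlapped for Gsto1 and Gstm1 and did not overlap for Gpx7.

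Of the 6 NADPH genes, 3 lay above and 3 below 0. Idh1, which makes cytosolic NADPH, had means of 47.1 ± 8.73 RPKM (WT) and 28.4 ± 4.25 RPKM (CKO), and G6pdx, the entry enzyme of the pentose phosphate pathway, 57.0 ± 11.2 and 43.2 ± 0.692 RPKM. Both were lower in every CKO library, and Me1 overlapped (36.9 ± 8.94 and 28.1 ± 4.19 RPKM). Of the 10 xenobiotic genes, 8 lay below 0, as did 5135 of all 11085 tested genes. The median of the list was −0.29. Aox1, an aldehyde oxidase gene, was at 1.60 to 3.50 RPKM over WT and 0.437 to 0.704 RPKM over CKO, and Osgin1 had means of 5.16 ± 0.139 and 3.49 ± 0.485 RPKM. The epoxide hydrolase gene Ephx1 had means of 255 ± 112 and 115 ± 39.6 RPKM. Aox1 and Osgin1 were lower in every CKO library, as was Nqo1, and Ephx1 overlapped.

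In the haem and iron list 4 genes lay above and 4 below 0. Fech, the ferrochelatase gene, was at 23.0 to 26.9 RPKM over WT and 16.3 to 19.1 RPKM over CKO, and Tfrc, the transferrin receptor gene, overlapped at means of 9.38 ± 6.86 and 19.0 ± 9.51 RPKM. Fth1, the ferritin heavy chain gene, also overlapped, at 2877 ± 985 and 1792 ± 1166 RPKM. The lowest adjusted p of the 62 genes was that of Sod3, the extracellular superoxide dismutase gene. Its WT libraries held 165, 298 and 163 RPKM, and its CKO libraries 33.6, 47.4 and 31.1 RPKM, a log2 difference of −2.41 (SE 0.33, limma adjusted p = 0.117). The cytosolic enzyme gene Sod1 (207 ± 30.9 and 243 ± 116 RPKM) and the mitochondrial Sod2 (14.1 ± 2.62 and 13.7 ± 5.19 RPKM) overlapped.

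**Figure D4:**
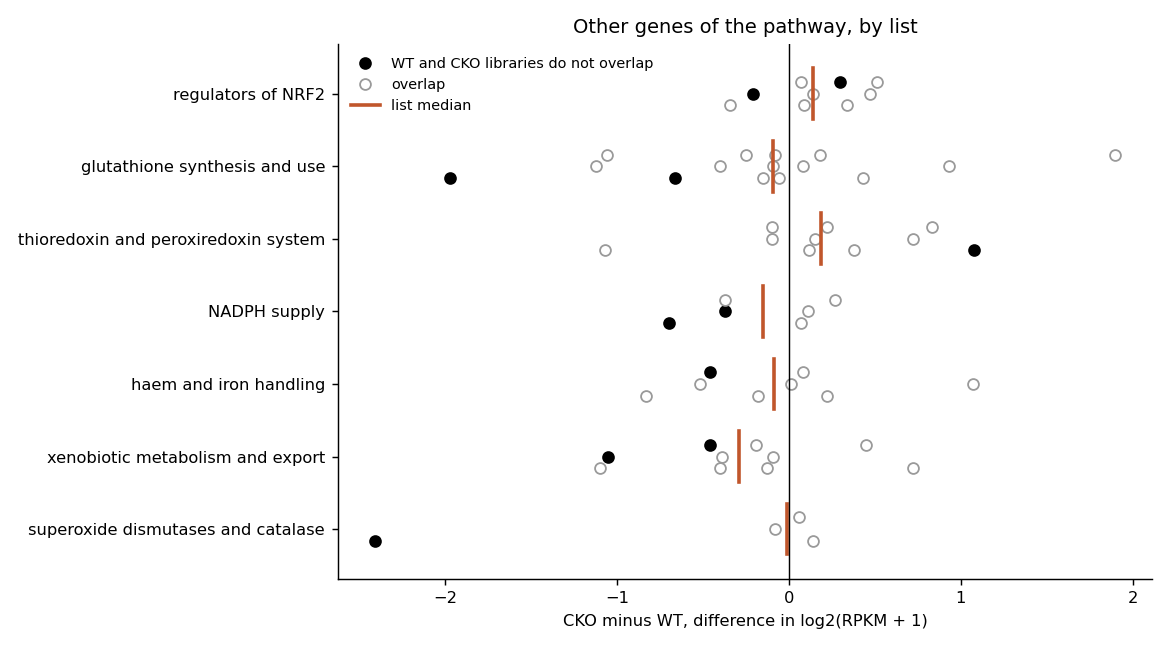
Difference CKO minus WT in log2(RPKM + 1) for the 62 other pathway genes tested, by list, with filled points where the WT and CKO libraries do not overlap and an orange bar at the list median. Of the 11 filled points, 9 lie below 0, with Sod3 at −2.41, and Prdx6 lies at 1.08. Of all tested genes, 9.18% were lower and 7.51% higher in every CKO library.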

How the data were processed

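Stranded mRNA libraries (TruSeq) were made from TRIzol RNA, per the labels' protocols. The authors deposited 1 RPKM value per gene and library, under headers that say only expression. The unit rests on the values themselves: 1 whole total per library and 1 whole length per gene gave whole reads for 15056 of 15063 genes (99.95%) and for 0 of 300 genes with values shuffled. The submitters' processing notes name mm9. Aligner, counter, annotation and strand use were not stated.

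Log2(RPKM + 1) was fitted with limma 3.58.1 (R 4.3.3) on genotype alone, using trend and robust moderation, over 11085 genes that reached RPKM 1 in 3 or more libraries. The fit was first tried on simulated reads whose spread was fixed and not estimated from these libraries, so that trial does not show how the test performs on them. P-values were adjusted over these genes (Benjamini-Hochberg, threshold 0.05). The pseudocount of 1 understates the change of low genes.

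The members and lists were chosen with earlier results of these data known. Besides the members and Mapk7, named genes are up to 3 per list with the lowest p and the 4 most like the mean target profile. Others (Galnt16, Ddx3y, Lyz2, Cx3cr1 and the stromal markers) were named after their values were seen. Alternatives were 2 normalizations, a pseudocount of 0.1, other filters and thresholds, limma without trend, voom on recovered reads, each library left out, merging the WT libraries of 1 animal label, a replicate block, and macrophage or proliferation covariates. Counts of members whose groups do not overlap were repeated under alternatives chosen after seeing the data.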

Additional observations from a re-analysis of the deposited data

How the results depend on the processing

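No member and none of the other pathway genes passed under any of the 17 alternative fits or at an adjusted threshold of 0.1. In the main fit, 2 members and 9 pathway genes were under 0.05 unadjusted, as were 9.74% of all tested genes. Over the 17 alternatives, Nqo1 was under 0.05 unadjusted in 17, Txnrd1 in 16, and Nfe2l2 and Srxn1 in 1 each. The lowest adjusted p of a member in any alternative was 0.227 (Txnrd1, without WT library 1). Nfe2l2, Keap1, Nqo1, Txnrd1, Srxn1 and Gsr kept their direction in all 17, from −1.10 to −0.69 for Nqo1 and from 0.67 to 1.17 for Txnrd1, and 157 of the 170 member values kept theirs. Of those that turned, Hmox1 was at −0.11 after quantile normalization, −0.12 with WT libraries 1 and 2 merged, −0.0022 with the proliferation covariate and −0.49 to 0.63 with 1 library left out. Gclc was at −0.093 with the proliferation covariate and −0.13 to 0.28 with 1 library left out. Gclm was at 0.013 with the macrophage covariate and −0.55 to 0.099 with 1 library left out, and Prdx1 was at −0.049 after quantile normalization. The cause was not tested. The count of members that did not overlap was 3 to 6 with 1 library left out, where 20.7% to 33.8% of all tested genes did not overlap, beside 16.7% with all 6 libraries.

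Over all genes, the 1 gene past the threshold became 2 after median centring or quantile normalization, 4 with the filter at RPKM 5, 20 with WT libraries 1 and 2 merged, 5 at an adjusted threshold of 0.1 and 1080 unadjusted under 0.05. It became 0 with a pseudocount of 0.1, without a filter, with voom, or with either covariate, and was 0 to 24 with 1 library left out: 24 without WT library 1, 17 without CKO library 1, 1 without CKO library 2 and 0 without any of the others. With the replicate block it was 0, and 0 members passed. The block rests on shared numbers only: deviations of same-numbered libraries correlated at 0.198, 0.0145 and −0.0192. The highest correlation of any pair was 0.206, for WT library 3 with CKO library 2. The fewest reads behind a member value were 174, for Nqo1.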
